A study of Mus musculus with 12 samples.

Results

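The 35 genes described here are expressed in the endothelium that lines blood and lymph vessels, together with the leukocyte adhesion molecules that inflamed vessels display and Rgs5, a marker of the pericytes around them. They were taken by name from a list, after Ensembl identifiers had been given mouse symbols with the GENCODE M21 annotation, and the rule itself uses no measured value. All 35 were found among the 54109 gene identifiers of the count table. RNA was sequenced from mice with acute colitis caused by dextran sulfate sodium (DSS), a polymer that damages the lining of the colon. Mice of the wild type (WT) were set beside Gpr15l-/- mice (KO), which lack a secreted ligand of the T cell homing receptor Gpr15. DSS was given in all groups, so neither genotype has an untreated control here, and the sources used here do not give the strain, age or sex of the mice. Full colon tissue and LPMC (a label read here as mononuclear cells of the lamina propria) were each sequenced in 3 WT and 3 KO libraries. Whether the replicates are different animals is not stated in the labels. The p-values therefore reflect variation among libraries, which need not be variation among animals. Between libraries of a group this variation was far above counting error, at a chi-square per gene of 75.5 to 602.

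Vessel endothelium is held together by adherens and tight junctions and receives VEGF, angiopoietin and apelin signals through receptors on its surface. Transcription factors of the ETS and SOX families keep endothelial identity, and Prox1 with Vegfc and its receptor Flt4 sets lymphatic identity. In an inflamed gut, cytokines such as TNF and interleukin-1 cause venules to display P-selectin, E-selectin, ICAM-1 and VCAM-1, on which leukocytes roll and then arrest. All levels below are in CPM, the usual unit of a gene's count relative to its library's total, scaled with TMM factors over the 12 libraries, and 3 values in a row are replicates 1, 2 and 3.

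The sequences just upstream of the annotated starts of Sele (E-selectin), Selp (P-selectin) and Icam1 (ICAM-1) are shown because these adhesion genes were among the most abundant or most tissue-biased of the 35. Each run is 250 bases of GRCm38.p6 from RefSeq, 5′ to 3′ on the strand of the gene, which is the plus strand for all 3. Capitals mark matches on either strand to AGGAAG, a core bound by ETS factors, or to GGG and CC with 5 bases of any kind between them, a loose form of the NF-kB site.
Sele, chr1:164047984-164048233: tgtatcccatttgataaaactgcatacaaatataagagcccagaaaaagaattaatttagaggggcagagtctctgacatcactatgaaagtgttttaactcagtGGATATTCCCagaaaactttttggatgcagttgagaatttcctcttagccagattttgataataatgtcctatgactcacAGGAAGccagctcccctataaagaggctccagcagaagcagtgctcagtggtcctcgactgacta
Selp, chr1:164115014-164115263: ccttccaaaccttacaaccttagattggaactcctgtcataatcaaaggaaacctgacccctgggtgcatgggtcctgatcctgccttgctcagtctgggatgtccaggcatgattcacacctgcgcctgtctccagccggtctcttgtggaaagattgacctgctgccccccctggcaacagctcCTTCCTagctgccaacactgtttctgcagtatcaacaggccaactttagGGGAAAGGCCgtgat
Icam1, chr9:21015690-21015939: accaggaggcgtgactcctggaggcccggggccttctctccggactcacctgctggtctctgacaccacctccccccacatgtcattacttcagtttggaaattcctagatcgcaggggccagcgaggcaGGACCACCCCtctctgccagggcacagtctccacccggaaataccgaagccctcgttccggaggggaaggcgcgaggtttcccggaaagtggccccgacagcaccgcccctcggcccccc
Of the 35 genes, 21 have an entry in the RefSeq table of upstream sequences. AGGAAG occurred for 11 of these 21 genes, among them Sele, Selp, Tie1, Robo4 and Erg, and in 29.5% of all 32851 windows of this length. The loose NF-kB pattern occurred for 13 of 21 genes, among them Sele, Selp and Icam1, and in 45.8% of all windows. A gene was counted if any of its windows held the pattern, whereas the percentages are of single windows, so the counts and shares are not alike. These were 2 of 11 patterns searched and were picked with the matches known, so they describe the letters of these windows and are no test.

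Library totals ran from 45372585 to 140682087 counts, and all 35 genes passed the filter on low counts in every comparison. The deleted gene, annotated as 2610528A11Rik, held 80362, 15639 and 42849 counts in colon WT, 18, 14 and 20 in colon KO, 30584, 32405 and 18619 in LPMC WT and 4, 6 and 10 in LPMC KO, so each library matched its genotype label. LPMC libraries also held RNA of cells that are not mononuclear leukocytes. Their 8 epithelial markers summed to 8848 to 12511 CPM, against 15078 to 29309 CPM in colon. Fibroblast markers summed to 894 to 5382 CPM in LPMC against 226 to 1029 CPM in colon, red blood cell markers to 351 to 1782 CPM against 4.47 to 41.7 CPM, and T cell markers to 47.3 to 198 CPM against 4.55 to 41.3 CPM. Monocyte and macrophage markers covered overlapping ranges, 141 to 489 CPM in LPMC and 59.4 to 414 CPM in colon. Colon WT replicate 1 stood apart in B cell markers, at 768 CPM where the remaining 5 held 2.07 to 17.3 CPM. Colon KO replicate 2 had the highest sums of epithelial and smooth muscle markers of the colon libraries, at 29309 and 2203 CPM.

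RNA of most vessel genes was more abundant in LPMC than in colon, in both genotypes. In WT mice 23 of the 35 genes were higher in LPMC and 0 were lower at an adjusted p under 0.05, where 17.8% of all 20989 genes tested were higher and 17.5% lower (edgeR's quasi-likelihood test with Benjamini-Hochberg adjustment over all genes). In KO mice 19 were higher and 0 lower, against 14.5% and 13.6% of all genes. The median log2 fold change of LPMC over colon was 2.09 in WT and 1.56 in KO, and 0.00 over all genes in each. At an unadjusted p under 0.05 there were 26 in WT and 22 in KO, against 46% and 40.9% of all genes. Estimates were positive for 34 and negative for 1 in WT, and positive for 31 and negative for 4 in KO, where 50% of all genes lay on each side. The WT libraries of the tissues did not overlap in 26 genes (49.7% of all), 25 of them higher (25.7%) and 1 lower (24%) in LPMC, and the KO libraries in 21 genes, all higher (23.9%). In 20 of the 35 genes all 6 LPMC libraries lay above all 6 colon libraries, as they did in 14.5% of all genes. The WT and KO comparisons share no library but share an estimate of the spread from a fit of all 12 libraries, and 17 genes passed in both (73.9% of the WT list and 89.5% of the KO list). A higher share of endothelial cells and more RNA per endothelial cell cannot be told apart in bulk RNA. Markers of some other cells moved with this difference. In WT, 7 of 8 fibroblast, 4 of 10 pericyte, 5 of 6 red blood cell and 5 of 8 T cell markers were higher in LPMC. Of 8 epithelial markers 6 were lower. Of the smooth muscle and B cell markers 0 were called. Of 8 monocyte and macrophage markers 2 were lower, as were 1 of 8 neutrophil and 1 of 5 platelet markers, with 0 higher. In KO, 5 of 8 fibroblast, 3 of 10 pericyte, 5 of 6 red blood cell, 8 of 8 T cell and 1 of 6 B cell markers were higher. Of 8 epithelial markers 5 were lower in KO, and of 8 neutrophil markers 1 was higher and 1 lower. Of the smooth muscle, monocyte and macrophage, and platelet markers 0 were called in KO. The part of any of these cells in the result was not tested.

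**Figure D1:**
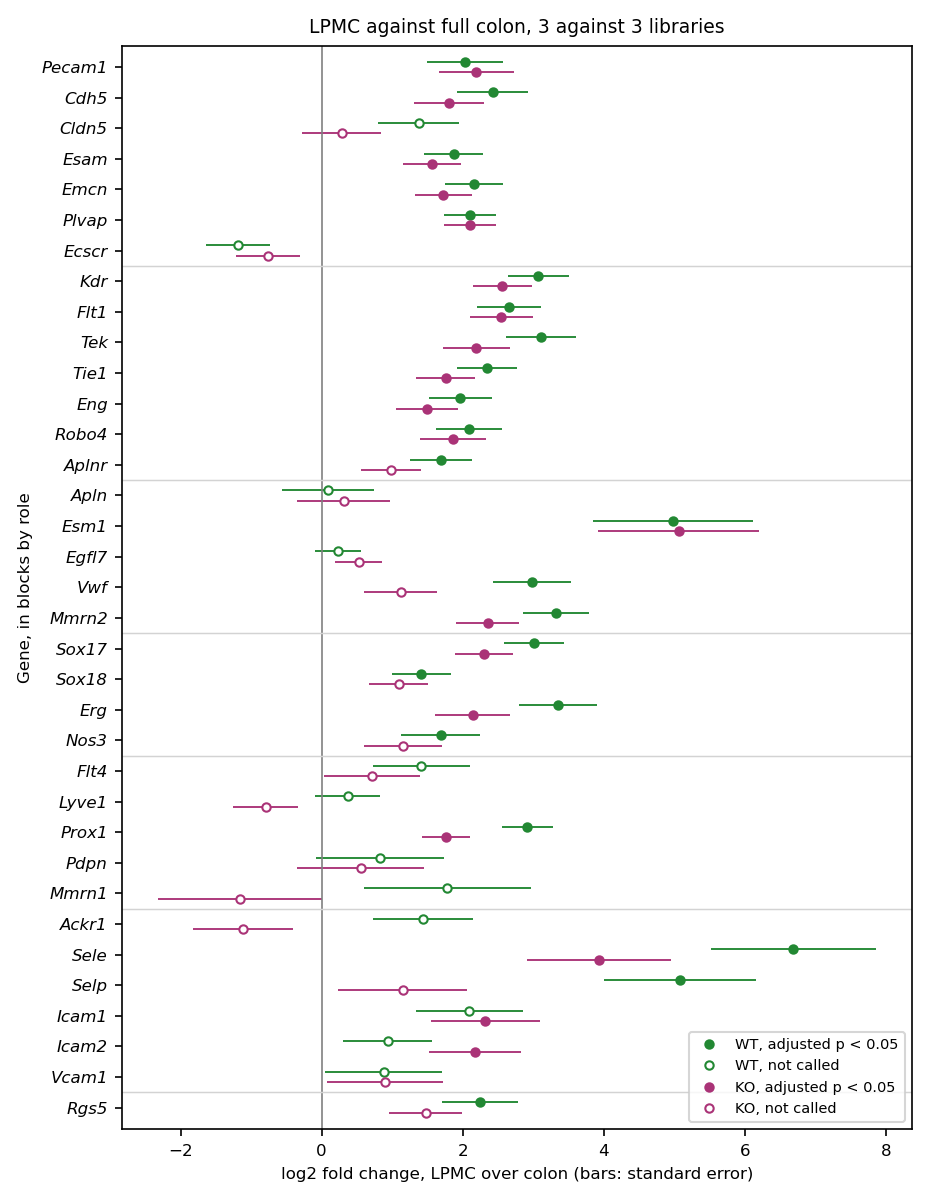
Log2 fold change of LPMC over full colon for each of the 35 genes (points, bars are standard errors), in WT and KO mice, with grey lines between role groups. Filled points passed an adjusted p of 0.05, which 23 genes did in WT and 19 in KO, and the selectins Sele and Selp and the secreted Esm1 reach furthest right in WT.

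Among junction and surface genes, 5 of 7 passed in each genotype. Pecam1, an adhesion molecule of endothelial junctions that platelets and some leukocytes also carry, was at 44.6, 16.4 and 13.2 CPM in colon WT, 18.2, 9.61 and 24.5 in colon KO, 139, 88.0 and 77.0 in LPMC WT and 61.5, 53.4 and 125 in LPMC KO. Its log2 fold change of LPMC over colon was 2.03 (SE 0.53, adjusted p = 0.0143) in WT and 2.19 (SE 0.54, adjusted p = 0.0132) in KO by edgeR. No LPMC library reached as low as the highest colon library. Cdh5, the VE-cadherin of adherens junctions (ENSMUSG00000031871, chromosome 8, 104101625 to 104144511, plus strand, GRCm38), stood at 11.7, 10.1 and 5.50 CPM in colon WT, 10.2, 4.80 and 14.1 in colon KO, 67.0, 42.9 and 36.4 in LPMC WT and 20.2, 23.7 and 58.0 in LPMC KO. It was higher in LPMC by 2.42 (SE 0.51, adjusted p = 0.00462) in WT and 1.81 (SE 0.49, adjusted p = 0.0204) in KO on the log2 scale. The 6 LPMC libraries were all above the 6 colon libraries. Esam, an adhesion molecule of tight junctions, was at 9.90, 10.2 and 7.09 CPM in colon WT, 7.15, 5.12 and 11.4 in colon KO, 45.1, 31.8 and 22.5 in LPMC WT and 13.5, 18.9 and 37.6 in LPMC KO, and rose from colon to LPMC by 1.87 (SE 0.42, adjusted p = 0.00626) in WT and 1.56 (SE 0.41, adjusted p = 0.0176) in KO. For Emcn, a sialomucin of capillary and venous endothelium, levels were 2.97, 2.02 and 2.41 CPM in colon WT, 1.59, 2.74 and 3.45 in colon KO, 13.1, 10.5 and 9.39 in LPMC WT and 4.90, 7.21 and 13.7 in LPMC KO. Emcn differed by 2.16 (SE 0.41, adjusted p = 0.00267) in WT and 1.72 (SE 0.40, adjusted p = 0.00971) in KO. Neither Esam nor Emcn overlapped between the tissues. Plvap, which forms the diaphragms of fenestrated capillaries, was at 45.04, 47.1 and 35.7 CPM in colon WT, 32.3, 22.0 and 37.8 in colon KO, 253, 179 and 119 in LPMC WT and 86.8, 99.9 and 209 in LPMC KO. It was higher in LPMC by 2.11 (SE 0.37, adjusted p = 0.00183) in WT and by almost the same amount, 2.10 (SE 0.37, adjusted p = 0.00232), in KO.

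The remaining junction and surface genes did not pass in either genotype. Cldn5, the main claudin of endothelial tight junctions, was at 1.57, 1.35 and 0.774 CPM in colon WT, 1.24, 0.555 and 2.05 in colon KO, 4.71, 2.92 and 1.91 in LPMC WT and 0.917, 1.12 and 2.68 in LPMC KO, with log2 fold changes of 1.37 (SE 0.57, adjusted p = 0.0822) in WT and 0.28 (SE 0.56, adjusted p = 0.737) in KO. LPMC and colon did not overlap in WT but did in KO. Ecscr, a surface regulator of endothelial migration, was the only one of the 35 with a negative value in WT. Its levels were 25.7, 75.4 and 26.7 CPM in colon WT, 32.4, 11.5 and 28.2 in colon KO, 20.6, 21.5 and 14.0 in LPMC WT and 15.7, 11.97 and 14.9 in LPMC KO. LPMC over colon was -1.18 (SE 0.45, adjusted p = 0.0626) in WT, with all LPMC libraries below all colon libraries, and -0.76 (SE 0.45, adjusted p = 0.230) in KO, with overlap. Ecscr shares 62 bases of exon with 1700066B19Rik on the other strand, and whether counting used strand is not stated. An alternative fit took the replicate number as a block that pairs colon and LPMC libraries, a pairing that the labels do not state. With it, Cldn5 (1.34, adjusted p = 0.0235) passed as higher and Ecscr (-1.02, adjusted p = 0.0428) as lower in WT by edgeR.

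All 7 receptor genes passed in WT and 6 passed in KO. Kdr, the main signalling receptor of VEGF on blood vessels, was at 6.91, 4.79 and 5.79 CPM in colon WT, 9.18, 3.85 and 8.25 in colon KO, 65.9, 48.6 and 32.7 in LPMC WT and 24.8, 36.5 and 64.5 in LPMC KO. It was higher in LPMC by 3.07 (SE 0.43, adjusted p = 0.000570) in WT and 2.56 (SE 0.42, adjusted p = 0.00165) in KO on the log2 scale (edgeR). Flt1, which binds VEGF strongly and acts largely as a decoy, was at 13.3, 10.3 and 7.37 CPM in colon WT, 9.78, 4.96 and 12.9 in colon KO, 80.8, 61.7 and 52.9 in LPMC WT and 28.7, 44.2 and 89.0 in LPMC KO, higher by 2.66 (SE 0.45, adjusted p = 0.00165) in WT and 2.55 (SE 0.45, adjusted p = 0.00254) in KO. These VEGF receptors separated the tissues without overlap. Tek, the angiopoietin receptor Tie2, was at 1.83, 2.51 and 1.99 CPM in colon WT, 2.68, 1.29 and 4.16 in colon KO, 24.7, 15.8 and 14.1 in LPMC WT and 8.64, 7.92 and 20.7 in LPMC KO, and LPMC exceeded colon by 3.11 (SE 0.50, adjusted p = 0.00115) in WT and 2.19 (SE 0.48, adjusted p = 0.00713) in KO. Tie1, an orphan receptor that modulates Tek, was at 8.45, 7.18 and 5.79 CPM in colon WT, 7.54, 4.62 and 10.8 in colon KO, 50.3, 33.4 and 25.0 in LPMC WT and 16.3, 19.3 and 42.2 in LPMC KO, with differences of 2.34 (SE 0.43, adjusted p = 0.00224) and 1.76 (SE 0.42, adjusted p = 0.0108). For both angiopoietin system receptors the WT estimate was the larger, but the difference between genotypes, tested as an interaction, did not pass. Eng, a co-receptor of BMP and TGF-beta ligands, was at 24.0, 23.8 and 13.4 CPM in colon WT, 21.5, 12.3 and 25.5 in colon KO, 119, 80.0 and 40.2 in LPMC WT and 51.8, 34.1 and 80.9 in LPMC KO, higher by 1.97 (SE 0.45, adjusted p = 0.00708) in WT and 1.49 (SE 0.44, adjusted p = 0.0283) in KO. Robo4, a receptor that stabilises vessels, was at 8.23, 6.62 and 4.80 CPM in colon WT, 6.01, 3.07 and 6.25 in colon KO, 40.2, 24.4 and 19.2 in LPMC WT and 10.03, 13.4 and 32.4 in LPMC KO, higher by 2.09 (SE 0.47, adjusted p = 0.00649) and 1.86 (SE 0.47, adjusted p = 0.0139). Eng and Robo4 did not overlap between tissues in either genotype. Aplnr, the apelin receptor, was scarce, at 1.06, 0.511 and 0.917 CPM in colon WT, 1.05, 1.14 and 1.30 in colon KO, 3.64, 2.78 and 1.68 in LPMC WT and 2.04, 1.35 and 3.53 in LPMC KO. It passed in WT at 1.69 (SE 0.44, adjusted p = 0.0125) and not in KO at 0.98 (SE 0.43, adjusted p = 0.108), although its 3 KO LPMC libraries were above its 3 KO colon libraries.

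**Figure D2:**
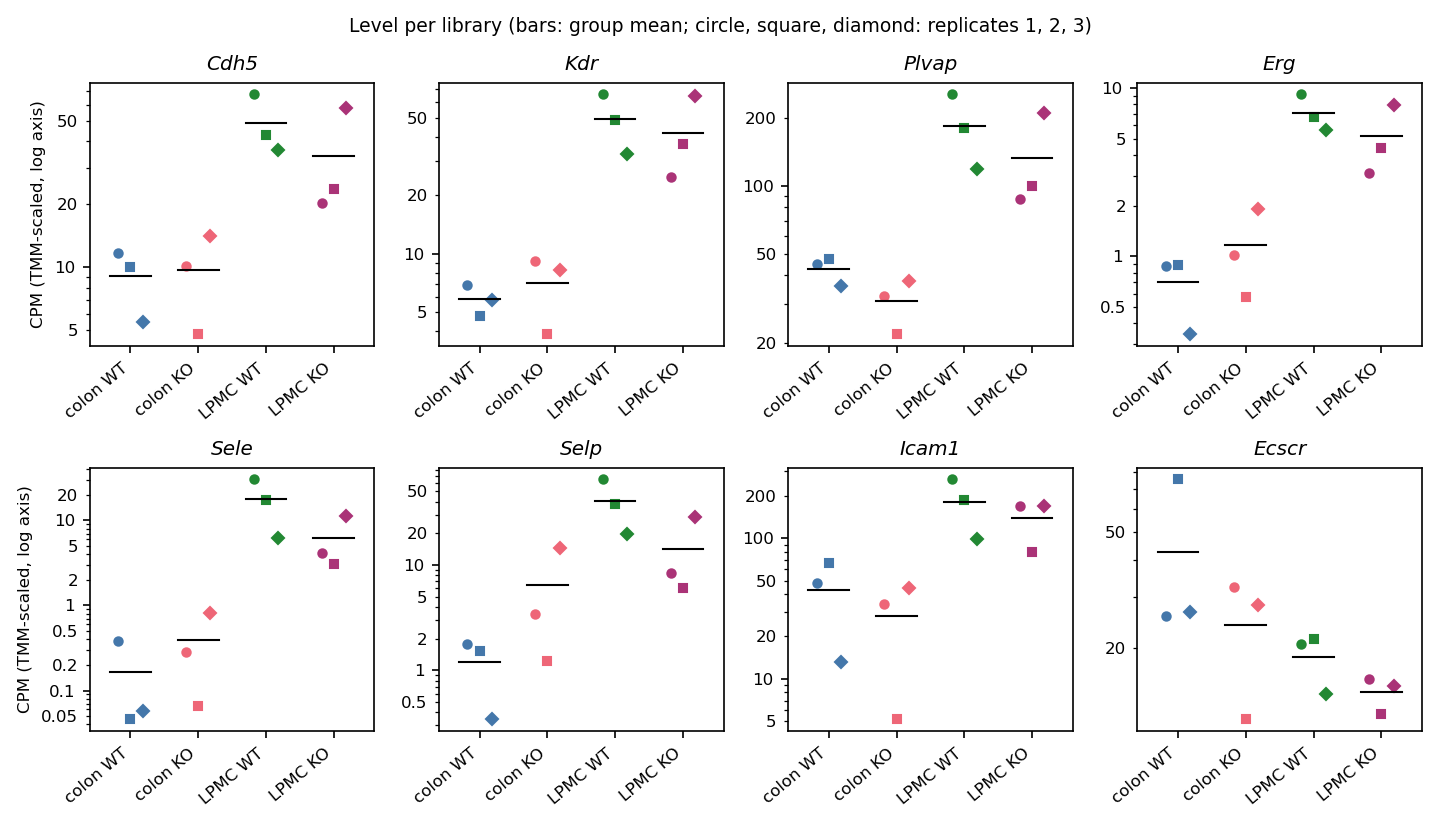
Level in TMM-scaled CPM (log axis) of 8 vessel genes in each of the 12 libraries, with circles, squares and diamonds for replicates 1, 2 and 3 and bars at group means. Cdh5, Kdr, Plvap, Erg, Sele and Icam1 have all LPMC libraries above all colon libraries, Selp has 1 colon KO library (14.6 CPM) within the LPMC range, and Ecscr is lower in LPMC WT than in colon WT.

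Secreted products split. Esm1, the proteoglycan endocan of sprouting tip cells, was close to absent from colon, with 44, 0 and 2 counts in WT and 20, 14 and 8 in KO, against 240 to 936 counts in LPMC. In CPM it was at 8.93, 5.37 and 4.68 in LPMC WT and 2.39, 4.50 and 9.33 in LPMC KO. The count of 0 allows up to 0.0661 CPM of the library total, by 3 counts and for counting error only. Esm1 was higher in LPMC by 4.98 (SE 1.13, adjusted p = 0.00710) in WT and 5.06 (SE 1.14, adjusted p = 0.00878) in KO, estimates that rest on few colon counts. Without colon WT replicate 1 the WT value was 8.42. Vwf, the von Willebrand factor that endothelial cells and platelets store, was at 6.69, 5.58 and 5.99 CPM in colon WT, 9.48, 5.89 and 21.6 in colon KO, 71.4, 45.4 and 27.6 in LPMC WT and 17.5, 17.4 and 45.6 in LPMC KO. It passed in WT at 2.98 (SE 0.56, adjusted p = 0.00258) but not in KO at 1.12 (SE 0.52, adjusted p = 0.130), where colon KO replicate 3 reached into the LPMC range. With the replicate block Vwf passed in KO as well (1.17, adjusted p = 0.0138). Mmrn2, a matrix protein of endothelium, was at 3.97, 4.23 and 2.84 CPM in colon WT, 4.02, 2.54 and 6.62 in colon KO, 51.0, 34.6 and 24.6 in LPMC WT and 14.7, 16.6 and 36.4 in LPMC KO, higher by 3.32 (SE 0.46, adjusted p = 0.000566) in WT and 2.36 (SE 0.44, adjusted p = 0.00342) in KO. All LPMC libraries of Mmrn2 were above all colon libraries. Apln, the ligand of Aplnr, was at 3.48, 1.07 and 1.03 CPM in colon WT, 0.958, 1.08 and 1.35 in colon KO, 2.90, 1.53 and 1.52 in LPMC WT and 0.611, 0.656 and 2.95 in LPMC KO, with uncalled values of 0.09 (SE 0.66, adjusted p = 0.928) in WT and 0.31 (SE 0.66, adjusted p = 0.757) in KO. Egfl7, a secreted regulator of vessel tube formation whose gene hosts miR-126, was at 16.7, 21.1 and 11.3 CPM in colon WT, 9.30, 6.93 and 10.3 in colon KO, 22.0, 20.5 and 15.1 in LPMC WT and 9.38, 9.34 and 19.5 in LPMC KO, with 0.23 (SE 0.33, adjusted p = 0.611) and 0.53 (SE 0.33, adjusted p = 0.258). Apln and Egfl7 overlapped between the tissues in each genotype.

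The 4 regulators of endothelial identity and tone all passed in WT. Erg, an ETS factor that maintains endothelial gene expression, was at 0.881, 0.883 and 0.344 CPM in colon WT, 1.01, 0.571 and 1.90 in colon KO, 9.15, 6.69 and 5.60 in LPMC WT and 3.13, 4.41 and 7.93 in LPMC KO, and was higher in LPMC by 3.35 (SE 0.56, adjusted p = 0.00141) in WT and 2.14 (SE 0.53, adjusted p = 0.0126) in KO (edgeR). Sox17, a SOX factor of arteries, was at 1.00, 1.14 and 0.788 CPM in colon WT, 0.937, 0.587 and 1.20 in colon KO, 10.6, 6.72 and 6.25 in LPMC WT and 2.98, 3.46 and 7.05 in LPMC KO, higher by 3.01 (SE 0.43, adjusted p = 0.000596) and 2.30 (SE 0.41, adjusted p = 0.00264). Both factors separated the tissues in each genotype. Its relative Sox18, needed in early lymphatic and blood vessels, was at 4.90, 5.81 and 3.52 CPM in colon WT, 4.13, 2.25 and 5.11 in colon KO, 17.7, 13.3 and 6.79 in LPMC WT and 6.79, 6.22 and 11.5 in LPMC KO, with 1.41 (SE 0.42, adjusted p = 0.0233) in WT and an uncalled 1.09 (SE 0.42, adjusted p = 0.0715) in KO that passed with the replicate block (1.12, adjusted p = 0.0201). Nos3, the endothelial nitric oxide synthase, was at 3.59, 5.69 and 1.52 CPM in colon WT, 2.83, 1.96 and 4.10 in colon KO, 16.5, 10.7 and 7.46 in LPMC WT and 3.91, 4.53 and 11.4 in LPMC KO, with 1.69 (SE 0.56, adjusted p = 0.0358) in WT and an uncalled 1.15 (SE 0.55, adjusted p = 0.136) in KO. Nos3 shares 25.17% of its exon bases with the antisense gene Gm15587, which held at most 30 counts in any library, and 294 bases with Atg9b on the other strand. The WT calls of Sox18 and Nos3 were each lost when single libraries were left out. Sox18 lost it without colon WT replicate 3 (1.24, adjusted p = 0.0823), LPMC WT replicate 1 (1.09, adjusted p = 0.0922) or LPMC WT replicate 2 (1.37, adjusted p = 0.0604). Nos3 lost it without colon WT replicate 1 (1.69, adjusted p = 0.0763), colon WT replicate 3 (1.32, adjusted p = 0.102), LPMC WT replicate 1 (1.34, adjusted p = 0.119) or LPMC WT replicate 2 (1.74, adjusted p = 0.0666), and in a fit of only the 6 WT libraries (1.67, adjusted p = 0.0521).

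Of the 5 lymphatic genes a single one passed, in both genotypes. Prox1, the master regulator of lymphatic identity, which some secretory epithelial cells of the gut also express, was at 0.555, 0.488 and 0.315 CPM in colon WT, 1.00, 1.09 and 1.46 in colon KO, 3.36, 3.00 and 3.92 in LPMC WT and 3.35, 5.71 and 3.04 in LPMC KO. It was higher in LPMC by 2.91 (SE 0.36, adjusted p = 0.000306) in WT and 1.76 (SE 0.34, adjusted p = 0.00387) in KO, with no overlap between tissues. The other 4 did not pass, though the estimates of all 5 were positive in WT. Flt4, the VEGF-C receptor, was at 5.38, 1.07 and 2.61 CPM in colon WT, 5.48, 1.47 and 4.26 in colon KO, 12.8, 7.82 and 3.55 in LPMC WT and 4.32, 3.69 and 10.4 in LPMC KO, with 1.41 (SE 0.69, adjusted p = 0.133) in WT and 0.71 (SE 0.68, adjusted p = 0.465) in KO. Lyve1, a hyaluronan receptor of lymphatic capillaries and some macrophages, was at 5.16, 3.88 and 7.54 CPM in colon WT, 9.73, 3.33 and 12.3 in colon KO, 8.96, 8.45 and 3.96 in LPMC WT and 4.07, 5.21 and 5.38 in LPMC KO, with 0.37 (SE 0.46, adjusted p = 0.562) in WT and a negative -0.80 (SE 0.46, adjusted p = 0.222) in KO. Lyve1 levels overlapped between colon and LPMC in WT and KO alike. Pdpn, podoplanin of lymphatic endothelium and of fibroblastic stroma, was at 10.998, 9.29 and 3.73 CPM in colon WT, 9.12, 2.42 and 12.3 in colon KO, 24.4, 15.6 and 2.62 in LPMC WT and 18.0, 2.06 and 14.9 in LPMC KO, with 0.83 (SE 0.90, adjusted p = 0.502) and 0.56 (SE 0.90, adjusted p = 0.677). Mmrn1, multimerin of lymphatic endothelium and platelets, was at 1.11, 0.790 and 1.46 CPM in colon WT, 3.87, 0.326 and 4.46 in colon KO, 7.51, 3.87 and 0.195 in LPMC WT and 1.35, 0.194 and 2.34 in LPMC KO, with 1.78 (SE 1.18, adjusted p = 0.262) and -1.16 (SE 1.16, adjusted p = 0.486). LPMC WT replicate 3 and LPMC KO replicate 2 were lowest in both Pdpn and Mmrn1, and these libraries also had the lowest sums of fibroblast markers in LPMC (894 and 1034 CPM, against 3281 to 5382 CPM). The part of fibroblast RNA in these levels was not tested.

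Of the 6 adhesion genes, 2 passed in WT and 3 in KO. Sele, which is made by cytokine-activated endothelium (ENSMUSG00000026582, chromosome 1, 164048234 to 164057677, plus strand), was at 0.386, 0.0460 and 0.0570 CPM in colon WT, 0.280, 0.0650 and 0.823 in colon KO, 30.2, 17.5 and 6.22 in LPMC WT and 4.15, 3.09 and 11.3 in LPMC KO. Its colon libraries held 32, 2 and 4 counts in WT and 26, 4 and 123 in KO, against 254 to 3168 counts in LPMC. Sele was higher in LPMC by 6.69 (SE 1.17, adjusted p = 0.00202) in WT and 3.93 (SE 1.02, adjusted p = 0.0165) in KO, without overlap. Its WT value was 8.38 without colon WT replicate 1 and 6.09 without LPMC WT replicate 1. Selp, which endothelium and platelets store (ENSMUSG00000026580, chromosome 1, 164115264 to 164150026, plus strand), was at 1.76, 1.53 and 0.344 CPM in colon WT, 3.44, 1.24 and 14.6 in colon KO, 64.9, 37.9 and 19.9 in LPMC WT and 8.37, 6.04 and 28.7 in LPMC KO. It was higher in WT by 5.08 (SE 1.08, adjusted p = 0.00545) and did not pass in KO at 1.15 (SE 0.91, adjusted p = 0.374), where colon KO replicate 3 overlapped LPMC. The replicate block gave 1.49 (adjusted p = 0.0126) for Selp in KO. Platelets also carry Selp and Vwf RNA. The 8 platelet markers summed to 1.56 to 4.78 CPM in LPMC against 4.81 to 8.83 CPM in colon, sums made up mostly of Pf4 (0.273 to 1.41 CPM in LPMC and 1.14 to 5.07 CPM in colon) and Itga2b (0.976 to 3.09 and 1.20 to 3.54 CPM). The other 6 lay between 0 and 0.604 CPM, with Gp9 at 0 in all 6 colon libraries and in 1 LPMC library and at 0.026 to 0.081 CPM in the remaining 5, and Gp5 at 0.362, 0.262 and 0.156 CPM in LPMC WT against 0.217, 0 and 0.057 CPM in colon WT. The part of platelet RNA in the Selp and Vwf levels was not tested.

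Icam1, the ligand of leukocyte integrin LFA-1, which epithelium, stroma and leukocytes also make, was at 48.3, 67.2 and 13.1 CPM in colon WT, 33.9, 5.16 and 44.2 in colon KO, 262, 186 and 99.6 in LPMC WT and 168, 79.8 and 169 in LPMC KO. All LPMC libraries exceeded all colon libraries, yet Icam1 missed the threshold in WT at 2.09 (SE 0.76, adjusted p = 0.0538) and passed in KO at 2.32 (SE 0.77, adjusted p = 0.0446) by edgeR. Icam2, carried by resting endothelium and some leukocytes, was at 8.56, 2.25 and 1.09 CPM in colon WT, 1.37, 1.09 and 1.65 in colon KO, 9.94, 7.17 and 5.74 in LPMC WT and 6.04, 3.32 and 9.29 in LPMC KO, with an uncalled 0.94 (SE 0.63, adjusted p = 0.269) in WT and a called 2.18 (SE 0.66, adjusted p = 0.0301) in KO. Colon WT replicate 1, the library rich in B cell markers, held the highest colon level of Icam2, and without it Icam2 passed in WT as well, at 2.20 (adjusted p = 0.00968). Vcam1, the ligand of integrin alpha4, made by endothelium, stroma and macrophages, was at 29.7, 17.9 and 6.95 CPM in colon WT, 16.4, 3.30 and 22.6 in colon KO, 58.2, 31.0 and 11.1 in LPMC WT and 32.1, 8.16 and 38.5 in LPMC KO, with 0.88 (SE 0.82, adjusted p = 0.431) and 0.90 (SE 0.82, adjusted p = 0.445). Ackr1, the chemokine-binding receptor of venules, was at 1.77, 3.48 and 1.12 CPM in colon WT, 2.19, 2.19 and 6.79 in colon KO, 9.13, 4.90 and 3.12 in LPMC WT and 1.35, 0.547 and 3.26 in LPMC KO, with 1.44 (SE 0.71, adjusted p = 0.139) in WT and -1.12 (SE 0.71, adjusted p = 0.259) in KO. Ackr1 was thus the only adhesion gene whose estimate was negative in KO, and it overlapped between tissues in both genotypes. It shares 361 bases, 25.69% of its exon bases, with Cadm3 on the same strand, so its counts are uncertain. With the replicate block Ackr1 (1.45, adjusted p = 0.0354), Icam1 (2.28, adjusted p = 0.0079), Icam2 (1.42, adjusted p = 0.0393) and Vcam1 (0.81, adjusted p = 0.00888) passed as higher in WT, and Vcam1 (1.01, adjusted p = 0.00473) in KO. Rgs5, an inhibitor of G protein signalling in pericytes, was at 44.7, 29.0 and 21.4 CPM in colon WT, 33.6, 83.0 and 37.7 in colon KO, 213, 129 and 109 in LPMC WT and 72.1, 103 and 254 in LPMC KO. It passed in WT at 2.25 (SE 0.53, adjusted p = 0.00903) and not in KO at 1.48 (SE 0.52, adjusted p = 0.0562) without the block, where colon KO replicate 2 was at 83.0 CPM; with the block the KO value was 1.37 (adjusted p = 0.0467).

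Single libraries decided part of the tissue calls. Leaving out each library in turn kept 20 of the 23 WT calls throughout, and Pecam1 was lost without colon WT replicate 2 (1.81, adjusted p = 0.0547). In KO, 10 of the 19 calls were kept throughout, those of Emcn, Plvap, Kdr, Flt1, Tek, Tie1, Esm1, Mmrn2, Sox17 and Prox1. Without LPMC KO replicate 3, the number of KO calls fell to 10, and the calls of Pecam1, Cdh5, Esam, Eng, Robo4, Erg, Sele, Icam1 and Icam2 were lost. Without colon KO replicate 1 the calls of Cdh5 (1.82, adjusted p = 0.0595), Esam (1.48, adjusted p = 0.0605), Eng (1.54, adjusted p = 0.0702), Sele (3.72, adjusted p = 0.0644), Icam1 (2.47, adjusted p = 0.0969) and Icam2 (2.15, adjusted p = 0.0831) were lost. Without colon KO replicate 2 those of Cdh5 (1.47, adjusted p = 0.0647), Esam (1.31, adjusted p = 0.0619), Eng (1.23, adjusted p = 0.101), Icam1 (1.81, adjusted p = 0.0862) and Icam2 (2.02, adjusted p = 0.0923) were lost by edgeR. Icam1 and Icam2 also failed without colon KO replicate 3 or LPMC KO replicate 1, and Icam1 without LPMC KO replicate 2. Eng failed without LPMC KO replicate 1 (1.54, adjusted p = 0.0548). Other calls appeared when a library was left out. In WT, Ecscr passed as lower without colon WT replicate 1 (-1.44, adjusted p = 0.0382) or colon WT replicate 3 (-1.43, adjusted p = 0.0497). In KO, Rgs5 passed as higher without colon KO replicate 2 (1.99, adjusted p = 0.0354) or LPMC KO replicate 1 (1.80, adjusted p = 0.0346), Vwf without colon KO replicate 3 (1.80, adjusted p = 0.0307), and Lyve1 as lower without colon KO replicate 2 (-1.19, adjusted p = 0.0474). Called values that moved by over 1.5-fold were, in WT, those of Pecam1 (2.78), Esm1 and Sele without colon WT replicate 1 and of Sele without LPMC WT replicate 1. In KO they were those of Sele without colon KO replicate 3 (5.10), and of Cdh5 (1.18), Robo4 (1.20), Esm1 (4.41) and Sele (3.17) without LPMC KO replicate 3.

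Levels of different genes can be set beside each other only per length of transcript. Divided by exon length in kb, Plvap was the most abundant of the 35 genes in LPMC, at 92.4 ± 33.8 CPM per kb in WT and 66.3 ± 33.7 in KO (SD, n = 3). Icam1 followed at 41.8 and 31.9 CPM per kb and Rgs5 at 33.1 and 31.4, and these neighbours did not differ beyond the spread between libraries. In colon WT the order began with Ecscr at 24.3 ± 16.2 and Plvap at 21.5 ± 3.05 CPM per kb, which overlapped. In colon KO Plvap was first at 15.4 ± 4.03, and Ecscr at 13.7 ± 6.31 and Rgs5 at 11.3 ± 6.03 overlapped it. The low end was held by Prox1, at 0.054 CPM per kb in colon WT and 0.408 in LPMC WT. Sele moved from place 34 of 35 in colon WT to place 14 in LPMC WT, and Selp from 28 to 9.

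Within LPMC, the ratios of most of these genes to Cdh5 varied less between libraries than their levels did. Cdh5, which is restricted to endothelium, served as the common denominator, a choice made with the values known. Its level ranged 3.31-fold from the lowest to the highest LPMC library. The ratio of Tie1 to Cdh5 stayed between 0.687 and 0.813, a 1.18-fold range, and the ratios of Robo4 (1.21-fold), Tek (1.28-fold), Mmrn2 (1.28-fold), Esam (1.29-fold), Nos3 (1.30-fold), Plvap (1.31-fold) and Erg (1.36-fold) were nearly as narrow. In all, 13 of 34 ratios spanned less than 1.5-fold and 20 less than 2-fold. Over the other 34 genes the median range was 3.41-fold for the level and 1.66-fold for the ratio, whereas over all genes it was 1.68-fold for the level and 3.76-fold for the ratio. The ratio spread less than the level in 30 of 34 genes in LPMC, against 9.88% of all genes above 0 in every LPMC library. In colon it did so in 28 of 33 genes, Esm1 being left out for its 0, against 14.4% of all genes. The points share their library and its depth, so this is a description.

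Other ratios varied more. In LPMC the widest ratio ranges were those of Mmrn1 (20.9-fold), Pdpn (12.4-fold), Ackr1 (5.91-fold), Vcam1 (5.22-fold), Prox1 (4.81-fold), Selp (3.80-fold), Sele (3.46-fold), Icam1 (3.04-fold) and Ecscr (3.02-fold). These are lymphatic and adhesion genes except Ecscr. Between tissues of WT mice, the ratio to Cdh5 was higher in every LPMC library than in every colon library for 7 of 34 genes (Tek, Esm1, Mmrn2, Sox17, Erg, Sele and Selp), against 2.46% of all genes, and lower for 14, among them Cldn5, Egfl7 and Nos3, against 78.3%. In KO it was higher for 8, among them Kdr, Flt1, Tek, Erg and Sele, against 3.61%, and lower for 11, against 66.2%. Cdh5 was itself higher in LPMC, by 2.42 in WT and 1.81 in KO, which lowers the ratio of any gene that does not rise with it. The shares over all genes thus depend on this denominator, and the counts are no test.

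KO and WT colon were compared to ask whether vessel genes differ in the inflamed tissue without Gpr15l. None of the 35 genes passed edgeR's test in colon (0 of 35 called, where 0.00518% of 19303 genes were, the deleted gene alone). At an unadjusted p under 0.05 there were 3 of 35, against 7.79% of all genes, and DESeq2 called 0, with 5 at an unadjusted p under 0.05, against 5.61% of all genes in that fit. Signs were split, 18 positive (50.5% of all genes) and 17 negative (49.5%), with a median log2 fold change of KO over WT of 0.05 (0.01 over all genes). Groups did not overlap in 2 of 35 genes, against 14.3% of all genes, with 1 higher (7.79% of all) and 1 lower (6.53%) in KO.

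Prox1 had the lowest p in colon, with 0.555, 0.488 and 0.315 CPM in WT and 1.00, 1.09 and 1.46 CPM in KO. Its value was 1.37 (SE 0.40, adjusted p = 0.632) by edgeR, and each KO library was above each WT library. These levels are 21 to 46 counts in WT and 67 to 218 in KO. Egfl7 was at 16.7, 21.1 and 11.3 CPM in WT and 9.30, 6.93 and 10.3 CPM in KO. All 3 KO libraries were below all WT libraries, at -0.90 (SE 0.30, adjusted p = 0.632). Selp was at 1.76, 1.53 and 0.344 CPM in WT and 3.44, 1.24 and 14.6 CPM in KO, at 2.39 (SE 0.98, adjusted p = 0.632). KO replicate 3 was far above the other colon libraries, and KO replicate 2 lay within the WT range.

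The other members named for colon by lowest p in their role group did not reach an unadjusted p of 0.05. For Plvap the value was -0.49 (SE 0.24, adjusted p = 0.639) and for Ecscr -0.84 (SE 0.53, adjusted p = 0.682). Among receptors Aplnr was at 0.47 (SE 0.39, adjusted p = 0.742) and Robo4 at -0.38 (SE 0.38, adjusted p = 0.782). Vwf was at 1.00 (SE 0.47, adjusted p = 0.636), with KO replicate 3 far above the rest. Erg at 0.71 (SE 0.58, adjusted p = 0.737) and Sox18 at -0.32 (SE 0.39, adjusted p = 0.821) led the regulators. Mmrn1 was at 1.35 (SE 0.82, adjusted p = 0.676), spread over 3.87, 0.326 and 4.46 CPM in the KO libraries. Icam2 was at -1.56 (SE 0.73, adjusted p = 0.636), with WT replicate 1, at 8.56 CPM, above all other colon libraries. Rgs5 was at 0.68 (SE 0.42, adjusted p = 0.678). Genes named for LPMC had colon values of 0.05 (SE 0.54) for Cldn5, 0.35 (SE 0.46) for Tek, -0.11 (SE 0.40) for Sox17, -0.29 (SE 0.53) for Nos3, 0.60 (SE 0.50) for Lyve1, 0.80 (SE 0.62) for Ackr1 and 1.19 (SE 1.06) for Sele. The 2 ends of the colon range were mostly held by KO libraries, with KO replicate 3 highest of the 6 in 19 of 35 genes and KO replicate 2 lowest in 21. KO replicate 2 had the highest epithelial sum (29309 CPM) and KO replicate 3 the lowest (15078 CPM), and the part of this in the vessel gene levels was not tested.

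**Figure D3:**
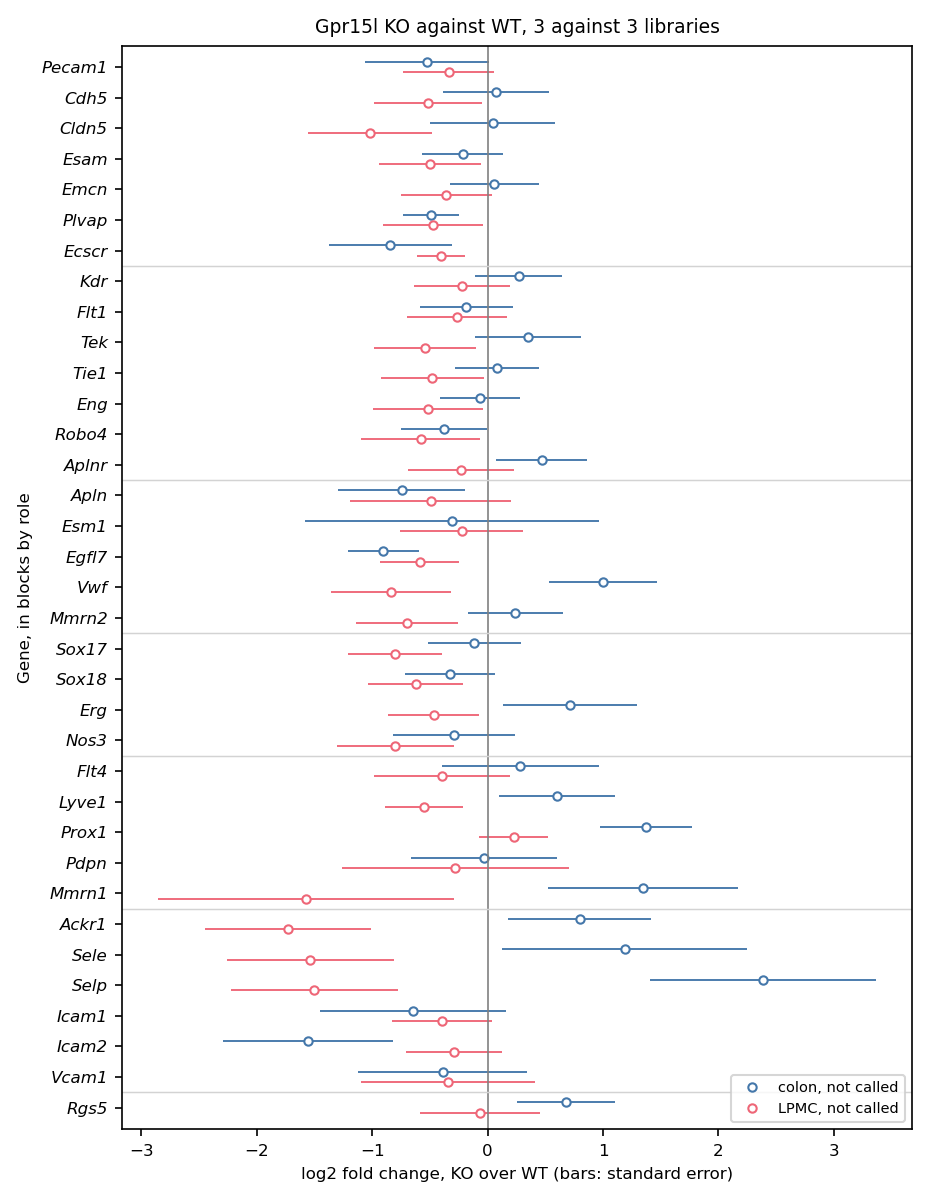
Log2 fold change of KO over WT for each of the 35 genes (points, bars are standard errors) within colon and within LPMC, with grey lines between role groups. No gene passed in either tissue. LPMC estimates lie left of 0 for 34 of 35 genes, and colon estimates lie on both sides.

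In LPMC the KO estimates leaned to one side without passing, and all 35 genes had adjusted p = 0.998 by edgeR. Of the 35 genes, 0 were called by edgeR (0.0103% of 19426 genes were, 0.00515% in each direction) and 0 reached an unadjusted p under 0.05 (2.64% of all genes), while DESeq2 called 0, with 3 at an unadjusted p under 0.05, against 2.62% of all genes in that fit. The log2 fold change of KO over WT was negative for 34 of 35, against 50.8% of all genes, and positive for 1, against 49.2%, with a median of -0.49 (-0.00 over all genes). Since most of these genes vary together from library to library, the 35 signs do not amount to 35 observations. WT and KO libraries overlapped in all 35 genes, where they did not in 7.41% of all genes (3.66% higher and 3.75% lower in KO). WT replicate 1 was the highest LPMC library in 28 of 35, KO replicates 1 and 2 were the lowest in 16 each, and KO replicate 3 was among the top 2 in 23.

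Ackr1, Mmrn1, Sele and Selp had the lowest estimates. Ackr1 was at 9.13, 4.90 and 3.12 CPM in WT and 1.35, 0.547 and 3.26 CPM in KO, at -1.73 (SE 0.72). Sele was at 30.2, 17.5 and 6.22 CPM in WT and 4.15, 3.09 and 11.3 CPM in KO, at -1.53 (SE 0.73). Both overlapped through KO replicate 3, the highest KO library. Selp, named for colon, was at 64.9, 37.9 and 19.9 CPM in WT and 8.37, 6.04 and 28.7 CPM in KO, at -1.50 (SE 0.72). Icam1 at -0.39 (SE 0.43), Icam2 at -0.29 (SE 0.41) and Vcam1 at -0.34 (SE 0.75) were closer to 0.

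Of the junction genes, Cldn5 was at -1.02 (SE 0.54) and Ecscr at -0.41 (SE 0.21). Receptors were led by Tek at -0.54 (SE 0.44) and Robo4 at -0.58 (SE 0.52). All 14 junction and receptor genes had negative estimates, from -0.22 for Kdr to -1.02 for Cldn5. Egfl7 at -0.59 (SE 0.34) and Vwf at -0.84 (SE 0.52) led the secreted genes. Sox17 at -0.80 (SE 0.41) and Nos3 at -0.80 (SE 0.51) led the regulators. Lyve1 was at -0.55 (SE 0.34) and Mmrn1 at -1.57 (SE 1.28), the latter over LPMC libraries that spanned 38.7-fold. Prox1, at 0.23 (SE 0.30), was the only positive estimate, and Rgs5 was near 0 at -0.06 (SE 0.52). Members named for colon were at -0.47 (SE 0.43) for Plvap, -0.23 (SE 0.46) for Aplnr, -0.62 (SE 0.41) for Sox18 and -0.47 (SE 0.39) for Erg.

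The LPMC estimates moved most when KO replicate 3 was left out. Without it the median was -0.99, and 20 of 35 genes had an unadjusted p under 0.05, all 20 lower in KO, against 2.78% of 20043 genes, but 0 passed the adjusted threshold by edgeR (over the 6 fits that leave out a library, the lowest adjusted p of Ackr1 was 0.91). Without WT replicate 1 the median was -0.21 and without KO replicate 2 it was -0.30, with 0 at an unadjusted p under 0.05 in each (2.57% and 5.28% of all genes in those fits). Without WT replicate 3 it was -0.72, with 5 such genes (4.07% of all genes). Smooth muscle markers leaned the same way, with 8 of 8 negative in KO and a median of -0.86, as did pericyte (8 of 10 negative, median -0.24), fibroblast (6 of 8, median -0.12) and epithelial markers (7 of 8, median -0.14). Leukocyte markers leaned the other way, with 8 of 8 monocyte and macrophage markers and 7 of 8 neutrophil markers positive in KO, as were 8 of 8 T cell and 6 of 6 B cell markers. None of these markers was called by edgeR, and 5 neutrophil, 1 monocyte and 1 epithelial marker had an unadjusted p under 0.05. Neutrophil markers summed to 121, 64.1 and 126 CPM in WT and 604, 78.8 and 411 CPM in KO, and the part of any of these cells in the vessel gene levels was not tested.

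Ratios to Cdh5 were also compared between the genotypes. The ratio of Selp to Cdh5 was 0.969, 0.884 and 0.545 in LPMC WT and 0.413, 0.255 and 0.494 in LPMC KO, lower in every KO library. In colon the same ratio was 0.150, 0.152 and 0.0625 in WT and 0.339, 0.259 and 1.04 in KO, higher in every KO library. The Selp ratio thus lay on opposite sides in the tissues, by a description of 3 against 3 libraries. The levels of Selp itself overlapped between genotypes in both tissues. Colon KO replicate 2 had 1.24 CPM of Selp, within the colon WT range of 0.344 to 1.76 CPM. Its Cdh5 level, 4.80 CPM, was the lowest of the colon libraries. For Ackr1 the LPMC ratios were 0.136, 0.114 and 0.0857 in WT and 0.0665, 0.0231 and 0.0563 in KO, without overlap, and the colon ratios of 0.151, 0.346 and 0.203 and 0.215, 0.456 and 0.483 overlapped. Sele ratios were 0.451, 0.408 and 0.171 in LPMC WT and 0.205, 0.130 and 0.195 in LPMC KO, which overlapped. By contrast the LPMC ratios of Tie1 were 0.750, 0.778 and 0.687 in WT and 0.804, 0.813 and 0.729 in KO. In LPMC the ratio was lower in every KO library for 5 of 34 genes (Cldn5, Sox17, Nos3, Ackr1 and Selp), against 0.257% of all genes, and higher for Pecam1 and Rgs5, that is 2 of 34 against 6% of all genes. In colon it was higher for 3 (Erg, Prox1 and Selp), against 1.53%, and lower for Robo4 alone, against 1.95%. Cdh5, the denominator, was itself at -0.52 (SE 0.47) for KO over WT in LPMC and at 0.07 (SE 0.46) in colon. Its level enters every ratio, so the shares over all genes depend on this choice, and the counts are no test.

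**Figure D4:**
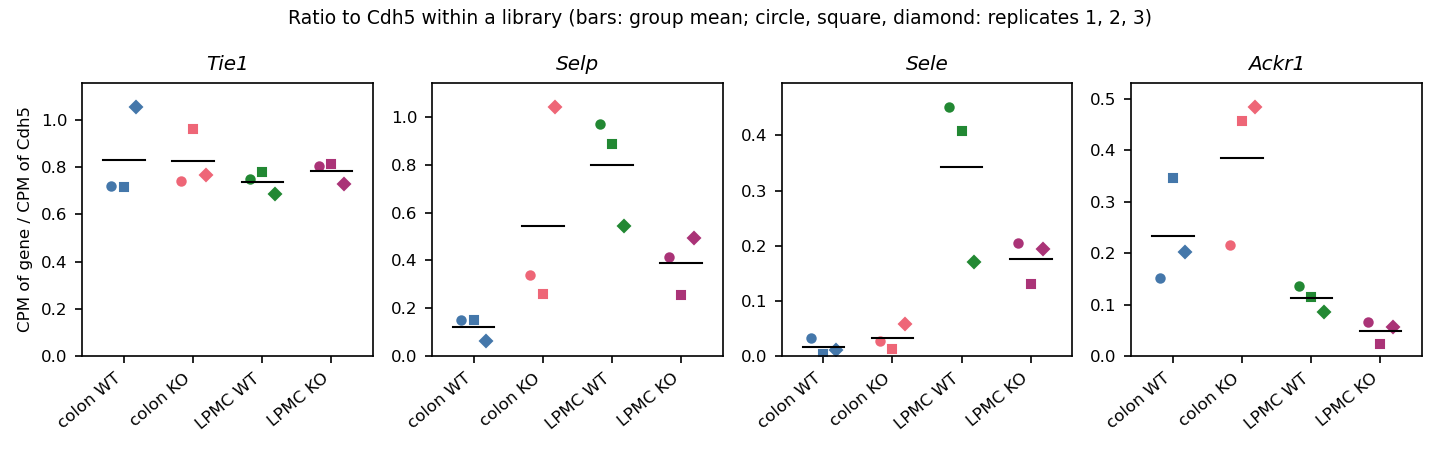
CPM of Tie1, Selp, Sele and Ackr1 divided by CPM of Cdh5 in each of the 12 libraries, with bars at group means. Tie1 keeps a ratio of 0.687 to 0.813 in LPMC. The Selp ratio is lower in every KO than in every WT library of LPMC. In colon it is higher in every KO than in every WT library. The levels of Selp itself overlapped between genotypes in both tissues.

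Whether the KO effect differed between the tissues was tested as an interaction over all 12 libraries. No gene passed (0 of 35 and 0 of all 20989, 0%, by edgeR, and 0 of 35 by DESeq2). At an unadjusted p under 0.05 there were 4 of 35 (11.4%), all negative, against 4.69% of all genes and 2.01% in that direction, and DESeq2 gave 6, against 4.13% of all genes in that fit. Estimates were negative for 27 (51.2% of all genes) and positive for 8 (48.8%). Selp was at -3.93 (SE 1.33, adjusted p = 0.902), Ackr1 at -2.56 (SE 1.01, adjusted p = 0.902), Vwf at -1.86 (SE 0.73, adjusted p = 0.902) and Prox1 at -1.15 (SE 0.48, adjusted p = 0.902). These differences are the KO over WT log2 fold change in LPMC minus that in colon. Others named by lowest p in their role group were Cldn5 at -1.09 (SE 0.80), Cdh5 at -0.61 (SE 0.68), Tek at -0.92 (SE 0.65), Aplnr at -0.71 (SE 0.60), Mmrn2 at -0.97 (SE 0.60), Erg at -1.21 (SE 0.72), Sox17 at -0.71 (SE 0.56), Lyve1 at -1.16 (SE 0.65) and Rgs5 at -0.77 (SE 0.72). None of these reached an unadjusted p of 0.05. Without colon KO replicate 3, 0 of 35 genes had an unadjusted p under 0.05 (3.17% of all genes in that fit), and without LPMC KO replicate 3, 10 had (3.64% of all genes). The interaction shares all its libraries with the comparisons above.

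Other genes of vessel signalling, from further lists, were also called between tissues and not between genotypes. Of 16 co-receptors and Notch genes of endothelium, 12 were higher and 1 lower in LPMC in WT, and 13 higher and 1 lower in KO, with medians of 1.88 and 1.98. Over all genes tested 17.8% were higher and 17.5% lower in WT, and 14.5% and 13.6% in KO. The Notch ligand Dll4 was higher by 2.46 (SE 0.25, adjusted p = 9.70e-05) in WT and 2.12 (SE 0.24, adjusted p = 0.000217) in KO, the VEGF co-receptor Nrp1 by 3.56 (SE 0.50, adjusted p = 0.000566) in WT and 2.34 (SE 0.47, adjusted p = 0.00474) in KO, and the netrin receptor Unc5b was lower in LPMC in both, at -1.39 (SE 0.27, adjusted p = 0.00305) in WT and -1.87 (SE 0.27, adjusted p = 0.000872) in KO. Notch1 was higher by 2.64 (SE 0.35, adjusted p = 0.000436) in WT and 1.99 (SE 0.34, adjusted p = 0.00209) in KO. Of 20 further blood endothelial genes, 15 were higher and 2 lower in WT (median 1.97), and 12 higher and 2 lower in KO (median 1.91). The water channel Aqp1 was higher by 4.03 (SE 0.39, adjusted p = 8.14e-05) in WT and 3.10 (SE 0.37, adjusted p = 0.000299) in KO, and Nostrin, a binding protein of Nos3, was lower in both, at -1.48 (SE 0.20, adjusted p = 0.000459) in WT and -1.71 (SE 0.20, adjusted p = 0.000242) in KO. Of 7 further lymphatic genes tested, 4 were higher in WT, among them Nts at 3.04 (SE 0.90, adjusted p = 0.0223) in WT and 1.74 (SE 0.84, adjusted p = 0.143) in KO and Reln at 2.89 (SE 0.89, adjusted p = 0.0279) in WT and 0.08 (SE 0.83, adjusted p = 0.952) in KO, and 2 in KO, and 0 were lower in either (medians 1.60 and 0.75).

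The lists of ligands, inducers and leukocyte partners were read against the same shares of all genes, 17.8% higher and 17.5% lower in WT and 14.5% and 13.6% in KO. Of 8 VEGF, angiopoietin and BMP ligands tested, 1 was higher in WT, the placental growth factor Pgf at 2.33 (SE 0.73, adjusted p = 0.0297), and 2 in KO, Pgf at 2.60 (SE 0.73, adjusted p = 0.0228) and the angiopoietin Angpt2 at 1.66 (SE 0.53, adjusted p = 0.0376), with list medians of 0.82 in WT and 0.99 in KO. Of 7 inducers of vessel adhesion molecules, 3 were higher in LPMC in each genotype, with medians of 2.71 and 3.40. Tnf was higher by 2.71 (SE 0.31, adjusted p = 0.000181) in WT and 3.60 (SE 0.32, adjusted p = 4.53e-05) in KO, Il1b by 3.30 (SE 0.96, adjusted p = 0.0223) and 4.78 (SE 1.03, adjusted p = 0.00735), and Il1a by 2.74 (SE 0.91, adjusted p = 0.0389) and 4.28 (SE 0.98, adjusted p = 0.00973) by edgeR. Of 9 leukocyte partners of the adhesion molecules, 3 were higher in WT (median 1.49) and 5 in KO (median 3.03), among them the hyaluronan receptor Cd44 (2.05 (SE 0.35, adjusted p = 0.00159) in WT and 2.31 (SE 0.35, adjusted p = 0.00108) in KO), the P-selectin ligand Selplg (2.33 (SE 0.68, adjusted p = 0.0233) in WT and 3.50 (SE 0.72, adjusted p = 0.00578) in KO) and the integrin Itga4 (2.69 (SE 0.82, adjusted p = 0.0271) in WT and 4.13 (SE 0.87, adjusted p = 0.00679) in KO). Between KO and WT, 0 genes of any of these lists were called in either tissue. In colon all 7 inducers had negative estimates, 3 of them with an unadjusted p under 0.05, Tnf at -1.02 (SE 0.35, adjusted p = 0.632), Ltb at -3.63 (SE 1.27, adjusted p = 0.632) and Lta at -3.53 (SE 1.36, adjusted p = 0.632). Colon B cell markers moved with Ltb and Lta, through colon WT replicate 1 (768 CPM), and their part was not tested.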

How the data were processed

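RNA from full colon and LPMC of DSS-treated WT and Gpr15l-/- mice was sequenced in 12 libraries, 3 in each of 4 groups, prepared with a kit that keeps strand per the labels' protocols. The authors deposited 1 table of whole-number counts per Ensembl gene. STAR and the builds GRCm38 and mm10 are named per the submitters' processing notes, and for the STAR version, annotation, counting tool and strand setting nothing is stated (not given in the sources used here). In the deposited table more entries equal 2 (24184) than 1 (8495), in each of the 12 libraries. Whether both reads of a pair were counted is not stated, so a count may be a read rather than a fragment, and the limit of 3 counts for Esm1 may then stand for fewer molecules than 3. Sample columns not used numbered 0. Symbols came from GENCODE M21 (54042 of 54109 identifiers, 67 not matched), and upstream sequences from RefSeq (GRCm38.p6).

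Counts were kept with filterByExpr (minimum count 10), scaled with TMM and tested with edgeR 4.0.16 (glmQLFit, glmQLFTest; limma 3.58.1, R 4.3.3), with Benjamini-Hochberg adjustment over all genes at 0.05. KO vs WT was fitted on the 6 libraries of a tissue, and the tissue and interaction comparisons on all 12. Library totals of 45372585 to 140682087 counts limit the precision of genes with few counts. Deviations of same-numbered colon and LPMC libraries correlated at 0.173 to 0.298 in WT and 0.143 to 0.355 in KO. Differently numbered ones correlated at -0.394 to 0.105 in WT and -0.327 to 0.211 in KO, so the ranges overlapped in KO. The main fits used no block. The replicate block was run as an alternative. In the tissue and interaction fits it paired the tissues by number within a genotype. In the KO vs WT fits it paired WT and KO libraries of a tissue by number. The labels state neither pairing. Between genotypes the correlations of same-numbered libraries (-0.299 to -0.092 in colon, -0.408 to 0.293 in LPMC) gave no ground for pairing. Differently numbered ones were at -0.16 to 0.301 and -0.587 to 0.544. Alternatives were DESeq2 1.42.0, its size factors, no filter on low counts, the other choice of libraries, the replicate block and leaving out each library.

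All 35 genes are named. Full statistics are given for those that passed and, in each role group, for up to 2 of lowest unadjusted p, and a gene named for KO vs WT is given in both tissues. Of the lists of vessel signalling, inducers and leukocyte partners, counts, medians and up to 3 genes of lowest p are given between tissues. Between genotypes these lists have only their counts of calls, apart from the inducers in colon. For the cell marker lists a selection of counts, sums and medians is given. The members and lists were chosen with earlier results of these data known. On simulated counts with 100 genes changed 4-fold and 100 changed 2-fold, the test recovered 44 and 1 among 19303 genes for colon KO vs WT, 52 and 13 among 19426 for LPMC KO vs WT, 28 and 1 among 20989 for the interaction, 52 and 9 among 20989 for tissue in WT, and 50 and 9 among 20989 for tissue in KO. Unchanged genes called by error numbered 6, 10, 1, 1 and 2 in the same order.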

Additional observations from a re-analysis of the deposited data

How the results depend on the processing

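Leaving out each library in turn left 21 to 24 of the 35 vessel genes called between tissues in WT and 10 to 18 in KO, the lowest being without LPMC KO replicate 3. It left 0 called between genotypes in either tissue and 0 in the interaction. Over all genes these fits called 5464 to 7112 between tissues in WT, 3647 to 5005 in KO, 0 to 1 for KO vs WT in colon, 1 to 2 in LPMC and 0 in the interaction. DESeq2 called 22 genes for KO vs WT in colon, 32 in LPMC and 3 in the interaction, none of them among the 35. The fit of all 12 libraries called 2 genes in colon, and no filter on low counts called 4 in LPMC. With the replicate block, which pairs libraries by number, 28 vessel genes were higher and 1 lower between tissues in WT (18.7% and 16.4% of all genes) and 24 higher in KO (15.6%). For KO vs WT, where it paired WT and KO libraries of a tissue by number, the block called 0 genes in either tissue. It missed even the deleted gene, so this fit cannot show whether vessel genes differ between genotypes. DESeq2 gave 25 higher and 1 lower in WT (12.2% and 13% of all genes) and 21 higher in KO (10.5%).

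In each comparison the genes that passed, and up to 2 of lowest p in each role group, were recomputed under the alternatives. Of these values 943 kept their direction and side of the threshold. A call was lost by 38, all between tissues, and gained by 5, in KO tissue, and 3 changed sign. Those 3 were Rgs5 for KO vs WT in LPMC, at 0.28 without LPMC WT replicate 1, 0.26 without LPMC KO replicate 1 and 0.13 without LPMC KO replicate 2, against -0.06, and leaving out each library gave -0.79 to 0.28. In KO tissue Eng (1.47, adjusted p = 0.0602) and Icam1 (adjusted p = 0.126) lost the call with no filter on low counts, Icam1 also in the 6-library fit (2.32, adjusted p = 0.0584), and Lyve1 passed as lower without colon KO replicate 2 (-1.19, adjusted p = 0.0474). Vessel genes outside that choice also gained tissue calls. In WT these were Cldn5, Ecscr, Ackr1, Icam1, Icam2 and Vcam1 with the block, and Cldn5, Ecscr and Icam1 with DESeq2. In KO they were Vwf, Sox18, Selp and Vcam1 with the block, and Sox18 with DESeq2. Leaving out a library added Ecscr and Icam2 in WT and Vwf in KO. Depth limits Esm1, Sele and Prox1 in colon, where libraries held as few as 0, 2 and 21 counts. With 3 libraries a group, the simulated recovery of 2-fold changes was low, so an uncalled gene was not shown to be equal between genotypes.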
